A study of Mus musculus with 11 samples.

Results

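The genes described here are the nuclear genes for the proteins of the mitochondrial ribosome whose symbols begin with Mrpl or Mrps and a number. All such symbols without pseudogenes were taken from the expression tables of newborn mouse haematopoietic stem cells (HSCs), which give rise to every blood lineage. In the tables of the scatter-gated cells this gave 77 of 24064 genes, 48 with large subunit names (Mrpl) and 29 with small subunit names (Mrps). They stood there as 91 transcripts, of which 1 was kept per gene, the one with the highest mean in the gated libraries. All 77 passed the filter on low values, and in the tables of the ungated cells 76 of 23420 genes carried such a symbol.

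The study sorted Lineage- Sca1+ cKit+ CD150+ CD48- cells from wild-type C57BL/6 newborns (liver, P0, the day of birth) and made Smart-seq2 libraries, a full-length cDNA method for small inputs, from 100 to 200 cells each. FSC-A High (4 libraries) and FSC-A Low (3 libraries) are HSCs with a high or a low forward scatter area, a cytometry reading that is often taken as a measure of cell size. A further 4 libraries, titled WT HSC, came from the same kind of cells with no scatter gate named in the labels and are called unfractionated. All groups share strain, genotype, tissue and age, and the labels name no treatment, do not give the bounds of the scatter gates and leave unsaid whether replicates are separate animals. The p-values below therefore reflect the spread among these libraries, which may be technical.

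The mitochondrial ribosome is the machine inside mitochondria that translates the few messenger RNAs of the mitochondrial genome, all of which encode subunits of the respiratory chain and of ATP synthase. Its ribosomal RNAs come from that genome, while every one of its proteins is encoded in the nucleus, made in the cytosol and imported. The large subunit joins amino acids and passes the growing chain through an exit tunnel to the inner membrane, and the small subunit holds and decodes the messenger RNA. Some of the proteins have counterparts in the ribosomes of bacteria, and others were added in the evolution of mitochondria.

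Each gated library corresponded to 65.7 M to 98.2 M reads, recovered from the digits of the deposited values, and the reads behind 1 member in 1 library ran from 192 to 44079. Over all genes, pairs of libraries had a Spearman's correlation of 0.938 to 0.954 within FSC-A High, 0.920 to 0.927 within FSC-A Low and 0.862 to 0.890 across the groups. Of the sort markers, Kit, Ly6a (Sca1) and Slamf1 (CD150) were detected in every gated library, Cd48 stayed between 0.082 and 3.32 RPKM (reads scaled to the length of the transcript and the depth of the library), and Kit was lower in FSC-A High (17.9 to 25.2 against 48.8 to 61.2 RPKM). Summed markers of other cells of the newborn liver covered like ranges in FSC-A High and Low for hepatocytes (58.8 to 74.7 and 53.4 to 77.9 RPKM, 6 genes). They were higher in every FSC-A High library for erythroid cells (110.1 to 237 against 69.0 to 102 RPKM, 8 genes) and macrophages (192 to 288 against 174 to 175 RPKM, 6 genes). They were lower there for megakaryocytes (165 to 237 against 312 to 432 RPKM, 5 genes) and endothelial cells (4.75 to 13.7 against 24.4 to 28.0 RPKM, 4 genes). Such sums can rest on few genes. Only 2 erythroid and 4 macrophage genes passed the filter, and 1 of each was called higher in the comparison below. Of 5 megakaryocyte and 2 endothelial genes that passed, 2 of each were called lower. Over all genes 15.6% were called higher and 11.7% lower. No marker was at 0 in all 7 gated libraries, and the part of these cells in the results below was not tested.

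The bases before the transcription start are shown for 5 of the 13 members that were higher in FSC-A High both as deposited and after removal of the transcript length trend (below). They were taken, after the values had been seen, from those whose window held at most 30 annotated exon bases. Mrpl16, Mrpl28, Mrpl33 and Mrpl35 met this bound as well and are not shown. No whole ETS or NRF1 core, as defined below, stands in the 250 bases before their starts. Cores are therefore more frequent among the stretches shown than among all that met the bound. The sequences are the 250 bases upstream of the start on the gene's strand, 5′ to 3′, from RefSeq on GRCm38.p6. Capitals mark the core of the ETS family motif, CCGGAAG, or of the motif of nuclear respiratory factor 1 (NRF1), which is GCGC, any 2 bases and GCGC again, searched on both strands.
Mrpl17 (chr7:105811088-105811337, minus strand): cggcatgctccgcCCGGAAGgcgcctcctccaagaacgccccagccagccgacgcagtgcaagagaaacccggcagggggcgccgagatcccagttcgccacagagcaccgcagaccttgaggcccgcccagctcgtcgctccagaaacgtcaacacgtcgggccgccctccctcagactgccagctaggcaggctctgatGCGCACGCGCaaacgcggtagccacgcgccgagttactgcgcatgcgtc
Mrpl22 (chr11:58171414-58171663, plus strand): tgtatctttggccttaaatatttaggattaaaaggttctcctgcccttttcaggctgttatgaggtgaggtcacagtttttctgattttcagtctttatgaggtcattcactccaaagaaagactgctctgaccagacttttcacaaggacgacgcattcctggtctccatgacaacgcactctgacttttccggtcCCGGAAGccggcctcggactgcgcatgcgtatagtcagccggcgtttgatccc
Mrpl45 (chr11:97315466-97315715, plus strand): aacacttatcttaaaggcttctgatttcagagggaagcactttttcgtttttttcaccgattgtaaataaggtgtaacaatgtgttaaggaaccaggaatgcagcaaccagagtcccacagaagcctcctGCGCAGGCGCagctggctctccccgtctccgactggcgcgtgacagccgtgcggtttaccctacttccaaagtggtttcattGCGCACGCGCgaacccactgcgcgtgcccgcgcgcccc
Mrpl42 (chr10:95501950-95502199, minus strand): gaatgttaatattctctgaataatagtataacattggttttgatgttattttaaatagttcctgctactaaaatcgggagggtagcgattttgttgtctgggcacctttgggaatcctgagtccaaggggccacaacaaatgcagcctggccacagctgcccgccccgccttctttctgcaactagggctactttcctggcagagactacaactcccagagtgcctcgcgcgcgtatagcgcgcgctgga
Mrps14 (chr1:160194965-160195214, plus strand): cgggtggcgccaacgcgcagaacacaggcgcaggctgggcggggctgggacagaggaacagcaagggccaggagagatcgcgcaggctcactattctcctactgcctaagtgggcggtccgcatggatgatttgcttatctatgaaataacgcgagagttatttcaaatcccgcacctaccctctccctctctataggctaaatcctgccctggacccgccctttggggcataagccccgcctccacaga
Mrpl17 holds an ETS core 237 bases and an NRF1 core 49 bases before its start, Mrpl22 an ETS core at 53 bases, and Mrpl45 NRF1 cores at 120 and 38 bases. Neither core stands in the stretches of Mrpl42, which had the largest difference of all members, and Mrps14, the only small subunit gene that was higher in both analyses.

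Windows of 300 bases, from 250 before to 50 after the start, were at hand for 68 members. The ETS core stood in 24 of them (35.3%), against 20.5% of the windows of genes tested here and 8.86% of all 32851 windows. For the NRF1 core the shares were 20.6%, 14.8% and 6.23%, and for AAGATGGC, the core of the YY1 motif, 17.6%, 5.29% and 2.75%. For the E-box CACGTG they were 7.35%, 10.5% and 7.15%, and for TATAAA 5.88%, 6.46% and 13.6%. Among member windows the YY1 core stood before the start only in Mrpl32, Mrpl36, Mrps11 and Mrps12. In the other member windows that held the YY1 core, it stood 11 to 36 bases after the start, within the transcript. Among the 13 members with a window that were called higher after removal of the length trend, 4 held the ETS core, 3 the NRF1 core and 3 the YY1 core. Among the 25 members with a window that were called in neither way, 7, 6 and 4 did. The cores do not overlap each other's letters in the windows printed above, and a match is a description of the letters only.

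The comparison of FSC-A High with FSC-A Low asks how the RNA of the mitochondrial ribosome differs between HSCs of high and low scatter. In the values as deposited, the members were higher in FSC-A High: 45 of 77 were called higher and 0 lower by limma on log2(RPKM + 1) at a Benjamini-Hochberg adjusted p below 0.05 over 10619 genes. Over all genes tested, 15.6% were called higher and 11.7% lower. A difference below 0 was seen in 4 members (Mrpl38, Mrps24, Mrps30 and Mrps35), with adjusted p from 0.324 to 0.973. The edgeR quasi-likelihood test on the reads that the RPKM values imply called 34 of 77 members higher (25 large, 9 small), where it called 12.9% of all genes higher and 11.5% lower. The median difference over the members was 0.64 on the log2(RPKM + 1) scale, where changes of weakly expressed genes come out too small, against -0.044 over all genes. In 49 members every FSC-A High library lay above every FSC-A Low library, and in 0 below, where the shares over all genes were 18.9% and 16.0%. In bulk samples fewer cells of a type and less RNA per cell cannot be told apart.

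Of the 48 large subunit genes, 30 were called higher in FSC-A High, with a median difference of 0.76 and a range from -0.017 to 1.87. Mrpl42 (chromosome 10, 95480805 to 95501949, GRCm38), a protein that only mitochondrial ribosomes carry, had the largest difference of all members. Its level was 259, 318, 307 and 364 RPKM in the FSC-A High libraries and 90.6, 69.6 and 94.1 RPKM in the FSC-A Low libraries. The 2 groups did not overlap, with means of 312 ± 43.2 (SD, n = 4) and 84.8 ± 13.2 RPKM (SD, n = 3), a difference of 1.87 with an SE of 0.16 and a limma adjusted p of 6.11e-06.

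Mrpl33, a small protein of the tRNA exit region with a bacterial counterpart, came next in the large subunit. It lay at 239, 296, 315 and 318 RPKM in FSC-A High and 87.5, 101 and 106 RPKM in FSC-A Low (difference 1.56, SE 0.14, limma adjusted p 1.41e-05). Its lowest FSC-A High library stood at more than 2 times its highest FSC-A Low library. Mrpl35, with a bacterial counterpart, was a gene of lower level, at 23.9, 29.1, 24.7 and 28.3 RPKM against 8.24, 9.03 and 11.2 RPKM (difference 1.397, SE 0.22, limma adjusted p 0.000555).

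Mrpl46 and Mrpl51 are proteins without a bacterial counterpart. Mrpl46 had 62.3, 91.1, 90.96 and 105 RPKM in FSC-A High and 31.99, 39.1 and 27.2 RPKM in FSC-A Low, a difference of 1.38 (SE 0.204, limma adjusted p 0.000391). Mrpl51 had 43.5, 54.6, 63.2 and 49.2 RPKM and 18.03, 26.1 and 16.9 RPKM, a difference of 1.34 (SE 0.21, limma adjusted p 0.000577). Neither gene's groups overlapped. The member with the highest level, Mrpl28, had 332, 436, 389.9 and 302 RPKM in FSC-A High and 175, 195 and 178 RPKM in FSC-A Low, so that its mean was 1.99 times higher (difference 0.98, SE 0.14, limma adjusted p 0.00036).

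The members with the lowest levels of the large subunit were not called. Mrpl1, the protein of the mobile L1 stalk, had 6.45, 7.94, 10.04 and 14.96 RPKM in FSC-A High and 5.69, 5.88 and 3.44 RPKM in FSC-A Low (difference 0.82, SE 0.33, limma adjusted p 0.0806). All its FSC-A High libraries were above all FSC-A Low ones, the closest at 6.45 and 5.88 RPKM. Mrpl47 had 3.35, 8.45, 7.09 and 17.1 RPKM and 6.36, 3.32 and 4.84 RPKM, with overlapping groups and the largest SE of the members (0.63, SE 0.42, limma adjusted p 0.299). On the opposite strand, 13.9% and 10.2% of the exon bases of Mrpl47 lie in exons of Ndufb5 (147 RPKM) and Actl6a (100.1 RPKM), and since Smart-seq2 does not mark strand, the reads of such neighbours cannot be told apart.

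Grouped by place in the ribosome, after the values had been seen, the proteins at the rim of the exit tunnel (Mrpl22, Mrpl23, Mrpl24, Mrpl47) and Mrpl45, which ties the ribosome to the inner membrane, gave 4 higher calls of 5 as deposited, where 15.6% of all genes were called higher, and 2 of 5 (Mrpl22 and Mrpl45) once the trend over transcript length, described below, was removed (9.25% of all genes). Mrpl22 had the largest of these, with 66.7, 86.8, 80.01 and 70.6 RPKM in FSC-A High and 25.8, 30.4 and 36.6 RPKM in FSC-A Low (difference 1.28, limma adjusted p 0.000285). This group of 5 leaves out Mrpl17, which lies near the exit tunnel and was called higher both ways, and may leave out other members there. Of the stalk that binds translation factors, Mrpl10, Mrpl11 and Mrpl12, which have bacterial counterparts, were called higher as deposited, with differences of 0.75, 1.05 and 0.61. This group of 3 may leave out other members at the stalk. Only 1 of 3 remained with the length trend removed, Mrpl11, and the differences of Mrpl10 and Mrpl12 were 0.54 and 0.042 (limma adjusted p 0.126 and 0.902). The libraries of Mrpl12 overlapped, at 186, 241, 197 and 149 RPKM against 116, 156 and 107 RPKM. Of the 30 large subunit genes with a bacterial counterpart 21 were called higher (median 0.84), and of the 18 without one 9 were (median 0.55), with median transcripts of 954 and 1417.5 nt. After removal of the length trend the counts were 8 of 30 (median 0.28) and 5 of 18 (median 0.21).

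In the small subunit 15 of 29 genes were called higher and 0 lower, where 15.6% and 11.7% of all genes were. The median difference was 0.57, with a range from -0.34 to 1.38. In 17 every FSC-A High library lay above every FSC-A Low one, where 18.9% of all genes did so. Of the 18 with a bacterial counterpart 12 were called (median 0.61) and of the 11 without one 3 were (median 0.30), a split drawn after the values had been seen. After removal of the trend over length, 1 of 18 (median 0.13) and 0 of 11 (median 0.083) were called higher, against 9.25% of all genes. Counting Mrps18a and Mrps30, which sit in the large subunit in spite of their names, with that subunit gave 31 of 50 calls there and 14 of 27 in the small subunit.

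Mrps14, a protein of the head of the small subunit with a bacterial counterpart (chromosome 1, 160195215 to 160201186, GRCm38), had 94.3, 111, 121 and 119 RPKM in FSC-A High and 37.2, 47.1 and 57.1 RPKM in FSC-A Low. The groups lay far apart, with a difference of 1.24 (SE 0.18, limma adjusted p 0.000308). Mrps21, another protein with a bacterial counterpart, spread more, at 37.2, 42.2, 62.6 and 81.1 RPKM against 17.8, 23.3 and 28.4 RPKM (difference 1.19, SE 0.27, limma adjusted p 0.00574). Mrps17 had 122, 138, 143 and 117 RPKM against 50.5, 85.9 and 74.8 RPKM (difference 0.91, SE 0.18, limma adjusted p 0.00305).

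Mrps36 is named as a small subunit protein and has since been assigned to the 2-oxoglutarate dehydrogenase complex of the citric acid cycle. It was among the members with the lowest levels, with 9.59, 10.4, 12.2 and 11.9 RPKM in FSC-A High and 4.58, 5.31 and 4.97 RPKM in FSC-A Low. The groups did not overlap, and the difference of 1.01 was called by limma (SE 0.26, adjusted p 0.0112) and not by edgeR on the reads that the values imply (adjusted p 0.103).

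The Mrps18 paralogs descend from a single bacterial protein. Mrps18c and Mrps18b sit in the small subunit and Mrps18a in the large one. Mrps18c had 78.2, 116, 121 and 159 RPKM in FSC-A High and 40.1, 39.9 and 51.7 RPKM in FSC-A Low, a difference of 1.38 (SE 0.22, limma adjusted p 0.000591), the largest of the small subunit names.
Mrps18b had 37.7, 62.7, 45.2 and 50.8 RPKM and 21.4, 26.96 and 29.1 RPKM, a difference of 0.89 (SE 0.21, limma adjusted p 0.00735). Mrps18a had 156, 187, 146 and 135 RPKM and 93.1, 99.999 and 94.1 RPKM, a difference of 0.69 (SE 0.15, limma adjusted p 0.00397). Each of the 3 was higher in all 4 FSC-A High libraries than in all 3 FSC-A Low ones, and differences between the paralogs were not tested.

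Mrps30 and Mrps24 were not called as deposited. Mrps30, one of the proteins that sit in the large subunit, at 299, 209, 213 and 115 RPKM in FSC-A High and 237, 282 and 237 RPKM in FSC-A Low, had the lowest difference of all members, -0.34, which was not called (SE 0.24, limma adjusted p 0.324). Its FSC-A High libraries ran from below to above all FSC-A Low ones. With the length trend removed its difference was -0.59 (limma adjusted p 0.105), and -0.80 without FSC-A High 1 (limma adjusted p 0.019), its highest library. Mrps24 had 182, 210.4, 183 and 138 RPKM and 169, 179 and 185 RPKM, a difference of -0.0091 (SE 0.15, limma adjusted p 0.971). Of its exon bases, 15.4% are shared with Urgcp on the same strand, which had 7.73 RPKM.

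**Figure D1:**
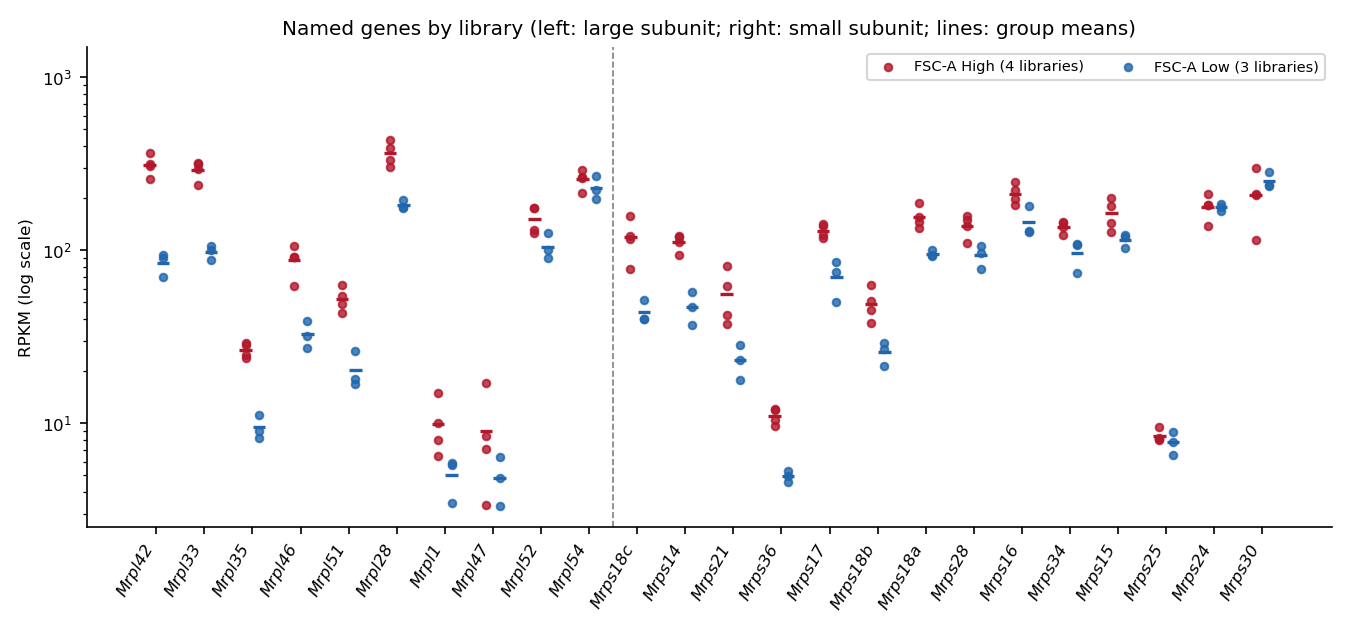
RPKM (log axis) of the 24 members chosen by the naming rule in each of the 4 FSC-A High and 3 FSC-A Low libraries, with a line at each group's mean. For Mrpl42 the FSC-A High libraries sit between 259 and 364 RPKM and the FSC-A Low libraries between 69.6 and 94.1, while for Mrps30 they overlap.

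The differences of all genes followed transcript length. Spearman's correlation between difference and length was -0.45 over the 10619 genes, which are not independent replicates, and calls in FSC-A High were most frequent among short genes: under 800 nt 43.5% of all genes were called higher, from 800 to under 1500 nt 37.1%, and above that 7.87%. Of the members, 17 of 22 under 800 nt were called higher, 19 of 33 from 800 to under 1500 nt and 9 of 22 of 1500 nt or more. The median member is 1052 nt long and the median gene tested 2429 nt. The trend was therefore removed within each library with a spline of log2(RPKM + 1) over log2 length, after which the correlation over all genes was -0.024 and 9.25% of genes were called higher and 8.51% lower. The lengths used were those recovered from the deposited values. They lay within 5% of the GENCODE annotation's length for 38 of the 77 members and were far shorter than it for 10. The cause of the trend was not tested.

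**Figure D2:**
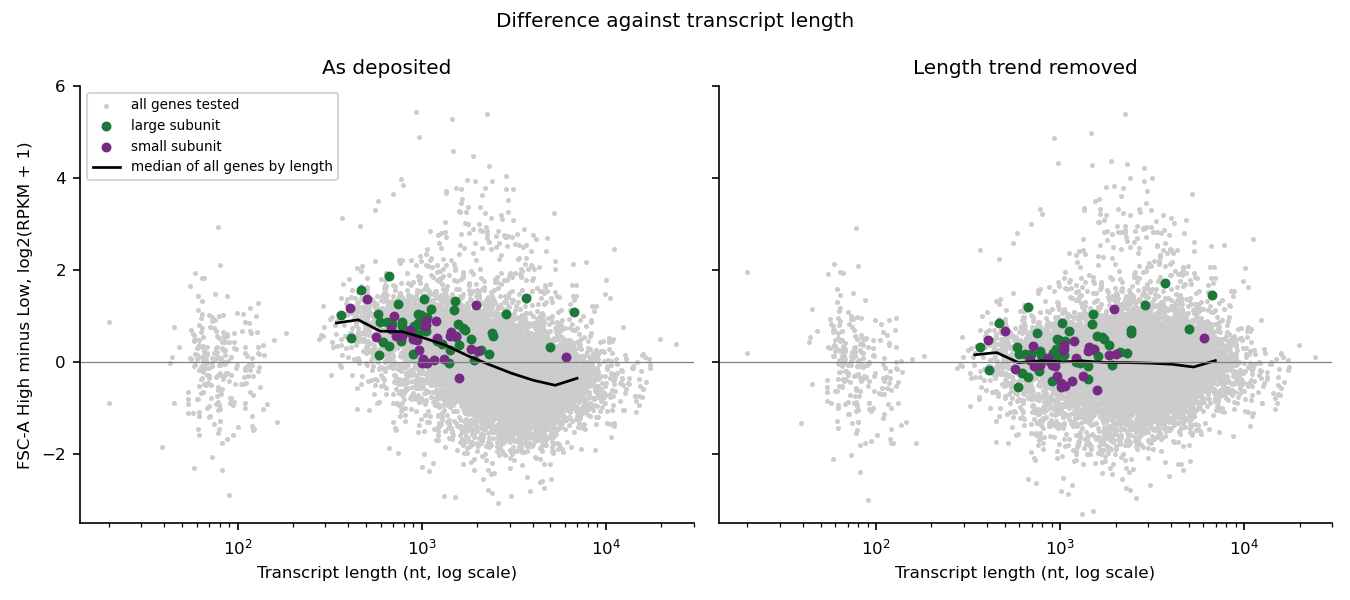
Difference FSC-A High minus Low on the log2(RPKM + 1) scale against transcript length (log axis) for each gene tested (grey) and for the large and small subunit members, as deposited (left) and with the length trend removed (right). The black line, the median of all genes by length, declines from above 0 to below 0 on the left and stays near 0 on the right, where members of 1500 nt or more have a median of 0.52.

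With the length trend removed, 14 of the 77 members were called higher in FSC-A High and 2 lower, with a median of 0.22 against -0.014 over all genes. The edgeR test with a length offset per gene called 11 members higher (10 large, 1 small), where it called 7.34% of all genes higher and 7.1% lower. In 20 members all FSC-A High libraries stood above all FSC-A Low ones and in 5 below, where the shares over all genes were 15.0% and 12.9%. The large subunit held 13 of the 14 higher calls, with 1 lower call and a median of 0.26. The small subunit had 1 call in each direction and a median of 0.089. Of the 30 large subunit genes called as deposited 12 remained, and of the 15 small subunit genes 1 remained. With GENCODE lengths in place of the recovered ones, 15 large and 5 small subunit genes were called higher. A difference between the subunits in these counts was not tested.

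By length of transcript the calls with the trend removed were spread as follows. Of the members of 1500 nt or more 7 of 22 were called higher, where all genes of that length had 8.82%. From 800 to under 1500 nt there were 4 of 33 members, where all genes had 9.8%, and under 800 nt 3 of 22, where all genes had 12.0%. Within the large subunit the counts were 6 of 16, 4 of 17 and 3 of 15 from longest to shortest, and within the small subunit 1 of 6, 0 of 16 and 0 of 7. For the members of 1500 nt or more the median difference was 0.56 as deposited and 0.52 with the trend removed, where all genes of that length had -0.19 and -0.025.

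Mrpl35 had the largest difference of all members in this second analysis. Its transcript is 3695 nt long, and its difference went from 1.397 as deposited to 1.71 with the trend removed (SE 0.19, limma adjusted p 4.97e-05). Mrpl42, of 666 nt, went from 1.87 to 1.19 (SE 0.17, limma adjusted p 0.000367), and Mrpl33, of 466 nt, from 1.56 to 0.85 (SE 0.14, limma adjusted p 0.000972). All of these calls held in every alternative that was run.

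Mrps14, of 1970 nt, was the only small subunit gene called higher in both analyses, with 1.15 after removal of the trend (SE 0.18, limma adjusted p 0.000673). Mrpl51 had 1.05 (limma adjusted p 0.00507), Mrpl46 0.85 (limma adjusted p 0.0156, and 0.0551 without the FSC-A Low library of replicate 3) and Mrpl28 0.47 (limma adjusted p 0.0249). The call of Mrpl28 was lost without any 1 of the libraries FSC-A High 2 and 3 and FSC-A Low 1, 2 and 3, with adjusted p from 0.0509 to 0.0834. The values of Mrps18c narrowly missed the threshold, at 0.67 (SE 0.22, limma adjusted p 0.0523). Mrps18c was called higher without FSC-A High 1 and at a pseudocount of 5 (limma adjusted p 0.0272 and 0.0268). The same held with no filter, a filter at 5 RPKM, GENCODE lengths and a finer spline (limma adjusted p 0.0307, 0.0494, 0.0401 and 0.047). In the other alternatives with the length trend removed it was not called.

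Another 6 members called higher in both analyses are named after their values were seen. Mrpl17, near the exit tunnel, had the longest transcript of them (6712 nt) and 28.5, 39.7, 32.2 and 30.7 RPKM in FSC-A High against 14.5, 14.3 and 15.8 RPKM in FSC-A Low. Its difference was 1.08 as deposited and 1.47 with the trend removed (limma adjusted p 3.43e-05). Mrpl11, of the factor-binding stalk, had 1.24 with the trend removed (limma adjusted p 0.00191).
Mrpl37, without a bacterial counterpart, had 0.83 (limma adjusted p 0.00439), and Mrpl16, which lies near the peptidyl transferase centre, had 0.69 (limma adjusted p 0.0311). The membrane anchor Mrpl45 had 0.64 (limma adjusted p 0.0128) and the tunnel protein Mrpl22 0.63 (limma adjusted p 0.0442). With edgeR and a length offset the calls of Mrpl16, Mrpl22 and Mrpl28 were lost (adjusted p 0.0585, 0.1 and 0.0548). Of these 6 limma adjusted p, the smallest belonged to the longest transcript and the largest to the shortest.

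Mrpl19 was called higher with the trend removed alone (0.33 as deposited, 0.73 with the trend removed, limma adjusted p 0.0304). It had 10.4, 12.01, 11.7 and 15.1 RPKM in FSC-A High and 12.8, 8.70004 and 7.63 RPKM in FSC-A Low, which overlap, and more than 20% of its exon bases lie in exons of Gcfc2 on the opposite strand. Mrpl54 and Mrps24 were called lower with the trend removed and were not called as deposited. Mrpl54 had 266, 291, 261 and 214 RPKM in FSC-A High and 198, 269 and 224 RPKM in FSC-A Low, with overlapping groups and differences of 0.17 (limma adjusted p 0.441) and -0.53 (limma adjusted p 0.022). For Mrps24, whose groups overlapped as deposited, the second difference was -0.55 (SE 0.15, limma adjusted p 0.0251). Without the FSC-A High library of replicate 3 or the FSC-A Low library of replicate 2 neither lower call was made, and that of Mrps24 was also lost without FSC-A Low 1 or 3. Neither was made at a pseudocount of 5 (limma adjusted p 0.0605 for Mrpl54 and 0.0554 for Mrps24) or with no filter (0.194 and 0.113).

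Another 5 members were called higher as deposited and had a difference below 0, without a call, once the trend was removed. Mrpl52, a protein without a bacterial counterpart (412 nt), had 132, 176, 177 and 126 RPKM in FSC-A High and 90.3, 125 and 99.8 RPKM in FSC-A Low. Its difference went from 0.53 (limma adjusted p 0.038) to -0.18 (limma adjusted p 0.491). Mrps16, the second highest of the small subunit names (566 nt), had 183, 247, 223 and 199 RPKM against 128, 181 and 129 RPKM, and its difference went from 0.55 (limma adjusted p 0.0227) to -0.15 (limma adjusted p 0.546). In both genes the lowest FSC-A High library stood just above the highest FSC-A Low one.

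Mrps28, the counterpart of bacterial S1, had 149, 159, 137 and 111 RPKM in FSC-A High and 77.7, 106 and 96.6 RPKM in FSC-A Low, and differences of 0.57 as deposited and -0.090 with the trend removed (limma adjusted p 0.0234 and 0.773). Mrps15 had 128, 181, 201 and 144 RPKM and 123, 119 and 103 RPKM, and differences of 0.49 and -0.082 (limma adjusted p 0.0488 and 0.782). For Mrps34, a protein without a bacterial counterpart, the differences were 0.52 and -0.071 (limma adjusted p 0.033 and 0.811). None of these groups overlapped as deposited. The calls as deposited of Mrpl52, Mrps15, Mrps16, Mrps28 and Mrps34 were each lost without FSC-A High 2, without FSC-A High 3 and without FSC-A Low 1, with limma adjusted p from 0.05599 to 0.1496. All of them were also lost with no filter (limma adjusted p 0.0669 to 0.121) and with edgeR on the implied reads (adjusted p 0.0517 to 0.105).

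**Figure D3:**
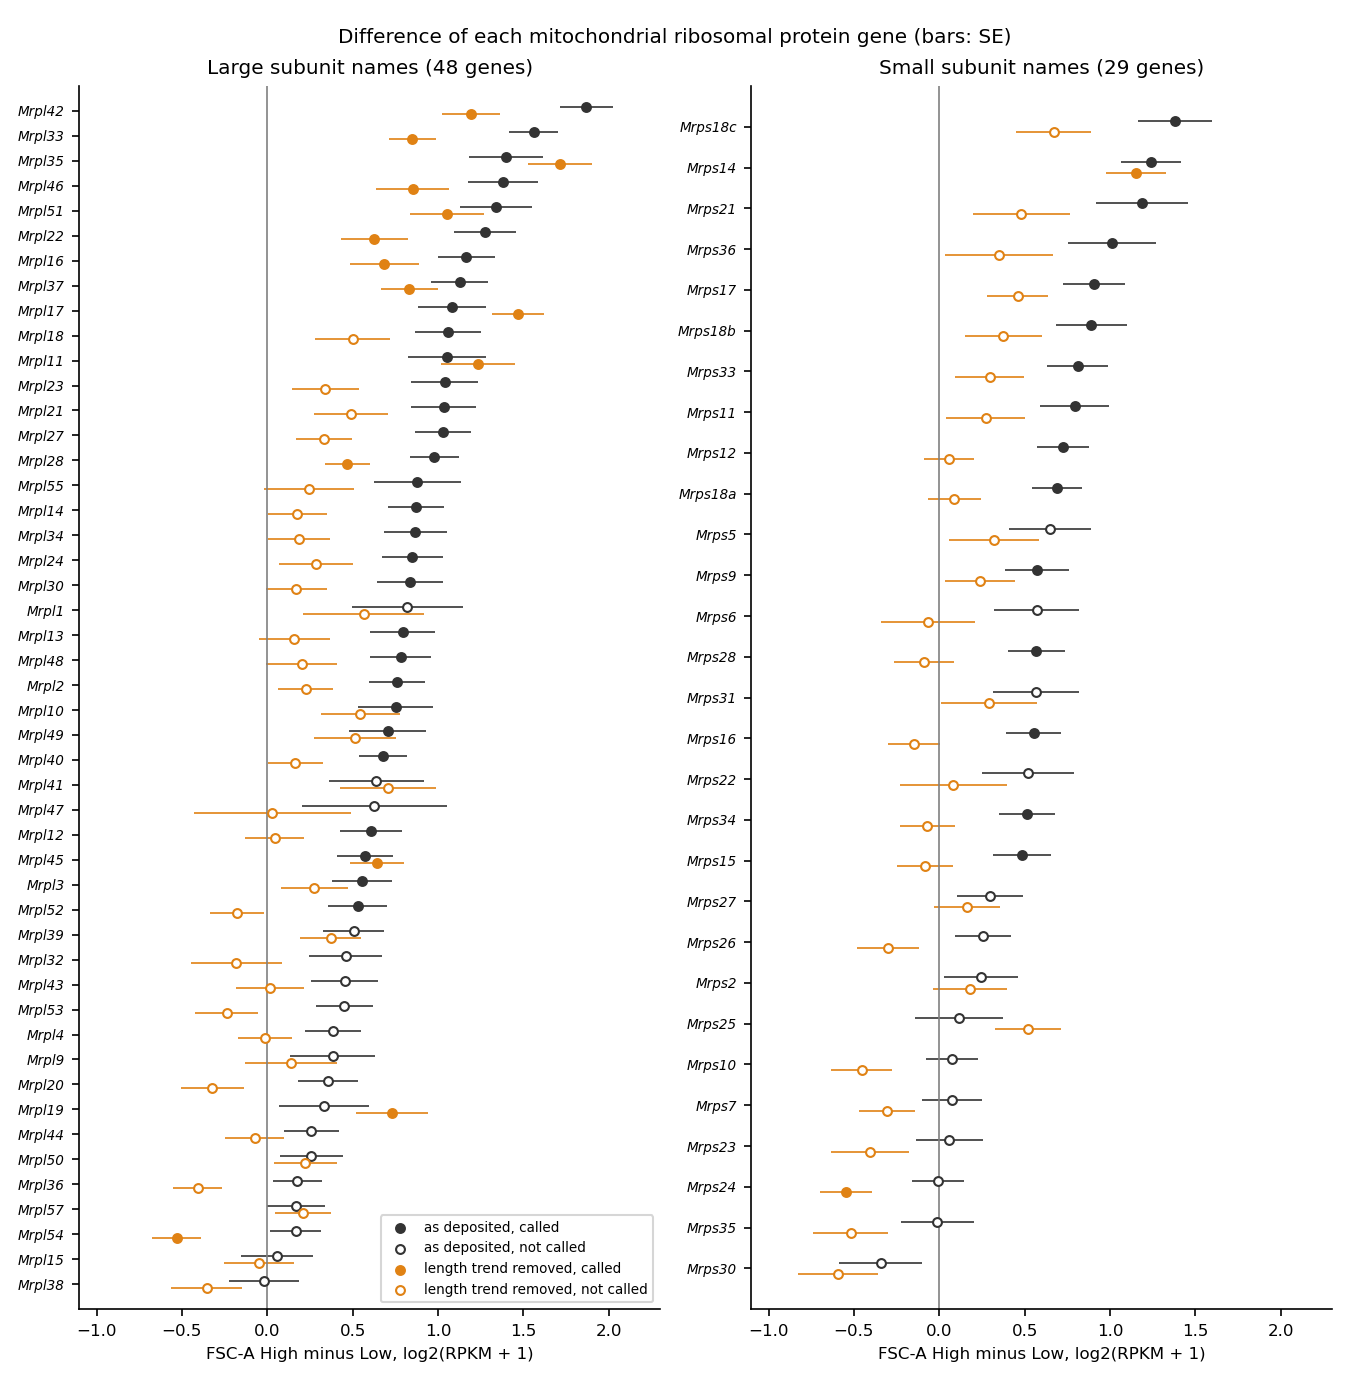
Difference FSC-A High minus Low on the log2(RPKM + 1) scale with its SE for each of the 48 large subunit genes (left) and 29 small subunit genes (right), as deposited (black) and with the length trend removed (orange), filled where limma called it. Filled orange points stand on the right of 0 for 13 large subunit genes and for Mrps14, and on the left for Mrpl54 and Mrps24.

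The mean of log2(RPKM + 1) over the large subunit genes was 6.02, 6.26, 6.23 and 6.17 in the FSC-A High libraries and 5.36, 5.48 and 5.43 in the FSC-A Low libraries. For the small subunit genes it was 5.96, 6.17, 6.14 and 6.06 against 5.43, 5.62 and 5.59. Neither subunit's groups overlapped. With the length trend removed the large subunit means lay between 5.03 and 5.15 in FSC-A High and between 4.74 and 4.77 in FSC-A Low. The small subunit means lay between 4.83 and 4.89 in FSC-A High and between 4.73 and 4.81 in FSC-A Low, so that those groups lay close to each other without overlap.

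The mean of the large subunit minus that of the small subunit, taken within each library, was above 0 in every FSC-A High library (0.059, 0.094, 0.092 and 0.11) and below 0 in every FSC-A Low library (-0.078, -0.15 and -0.16). With the length trend removed it was 0.20 to 0.26 in FSC-A High and -0.062 to 0.011 in FSC-A Low. As a share of the summed RPKM of all genes the large subunit genes took 1.05% to 1.15% in FSC-A High and 0.754% to 0.841% in FSC-A Low, without overlap. The small subunit genes took 0.597% to 0.670% and 0.552% to 0.618%, which overlap.

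**Figure D4:**
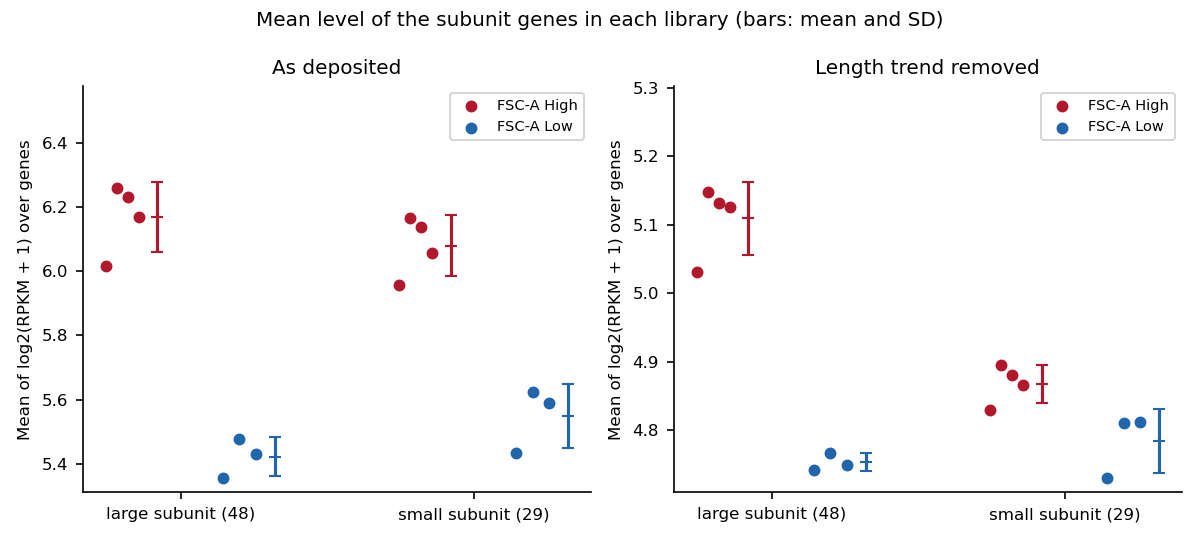
Mean of log2(RPKM + 1) over the 48 large and the 29 small subunit genes in each of the 4 FSC-A High and 3 FSC-A Low libraries, with the mean and SD of each group, as deposited (left) and with the length trend removed (right). The y axes differ and do not start at 0, and the groups of the small subunit on the right lie closest, at 4.83 to 4.89 and 4.73 to 4.81.

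Each library was also scaled to its total of gene values, which was larger in FSC-A High (424862 ± 13511 RPKM, SD, n = 4) than in FSC-A Low (341824 ± 7975 RPKM, SD, n = 3). The median over all genes then moved from -0.044 to -0.30, with 9.21% of genes called higher and 21.4% lower. The medians of the large and small subunit genes stood at 0.45 and 0.26, with 20 of 48 and 8 of 29 called higher and 0 lower. Of the named members, Mrps18a (limma adjusted p 0.0527) and Mrpl52, Mrps15, Mrps16, Mrps28 and Mrps34 (0.229 to 0.421) were no longer called. The medians of the members thus stayed above that of all genes.

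Exons of members overlap those of other genes in places. More than 20% of the exon bases of 6 members (Mrpl19, Mrpl24, Mrpl43, Mrpl53, Mrps25 and Mrps34) lie in exons of a protein-coding gene, and 2 of these, Mrpl24 and Mrps34, were called as deposited. For Mrps34 it is 63.4% with Mapk8ip3 on the opposite strand (3.24 RPKM) and 37.0% with Nme3 on the same strand (27.0 RPKM). Mrps34 itself had 123, 146, 136 and 143 RPKM in FSC-A High and 74.2, 109 and 107 RPKM in FSC-A Low (difference 0.52, limma adjusted p 0.033). Mrps25, a protein without a bacterial counterpart and the member of the small subunit with the lowest level, shares 69.8% with Nr2c2 (1.33 RPKM). It had 8.12, 9.497, 8.23 and 8.01 RPKM against 6.55, 7.79 and 8.95 RPKM, with overlapping groups and no call in either analysis (0.12 and 0.52, limma adjusted p 0.776 and 0.083).

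Mrpl46 and Mrps11 lie head to head on chromosome 7, with starts at 78783089 on the minus and 78783131 on the plus strand (GRCm38), 42 bases apart. Of the exon bases of Mrpl46, 12.2% are shared with Mrps11. Mrps11, a small subunit protein with a bacterial counterpart, had 41.9, 57.01, 47.8 and 70.9 RPKM in FSC-A High and 33.9, 28.1 and 29.5 RPKM in FSC-A Low. It was called higher as deposited, as was Mrpl46 (0.79 and 1.38), and with the length trend removed its difference was 0.27 (limma adjusted p 0.461).

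Among the members, difference and transcript length had a Spearman's correlation of -0.25 as deposited and 0.30 with the trend removed (77 genes). These are descriptions over genes that share the same libraries. The correlation of the difference with mean level was -0.0072 as deposited and -0.34 with the trend removed, and that with GC content -0.069 as deposited.

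Proteins that work with the mitochondrial ribosome gave the following counts in the same fits, to be read against all genes, of which 15.6% were called higher and 11.7% lower as deposited, and 9.25% and 8.51% with the length trend removed. Of 6 of its proteins without an Mrpl or Mrps name in the files, 3 were called higher as deposited and 0 with the length trend removed (medians 0.48 and 0.14). Aurkaip1 had 139.6 ± 12.96 RPKM (SD, n = 4) against 85.1 ± 7.08 (SD, n = 3), a difference of 0.71 (limma adjusted p 0.00281). Chchd1 differed by 0.59 (limma adjusted p 0.0131) and Mrpl58, the peptide release protein that the files list under its older symbol Ict1, by 0.67 (limma adjusted p 0.0121). None of the 6 was called lower.

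Of 24 tested genes for assembly of the ribosome and modification of its RNA, 3 were higher (12.5%, against 15.6% of all genes) and 1 lower (4.17%, against 11.7%) as deposited (median 0.33), and with the length trend removed 0 and 1. Tfb1m, which methylates the small ribosomal RNA, had 16.4, 18.6, 11.9 and 16.5 RPKM in FSC-A High and 7.41, 6.31 and 2.93 RPKM in FSC-A Low (difference 1.42, limma adjusted p 0.0048, and 0.0567 with the trend removed). Noa1, a GTPase of small subunit assembly, was lower in FSC-A High in both analyses, with 30.3, 20.3, 10.5 and 9.43 RPKM against 38.4, 52.4 and 31.7 RPKM (-1.29 and -1.25, limma adjusted p 0.016 and 0.0237). Mrm3 and Mtg2, which act on the large subunit, were higher as deposited by 0.69 and 0.88.

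Of 16 translation factors and partners of the messenger RNA, 4 were higher and 2 lower as deposited (median 0.12), where all genes had 15.6% and 11.7%. The counts with the length trend removed were 3 and 3, where all genes had 9.25% and 8.51%. Slirp and Lrpprc, which bind each other and keep mitochondrial messenger RNAs stable, went opposite ways. Slirp, of 419 nt, had 69.5, 112, 112 and 137 RPKM in FSC-A High and 33.3, 35.7 and 34.5 RPKM in FSC-A Low (1.57, and 0.86 with the trend removed, limma adjusted p 0.000193 and 0.0138). Lrpprc, of 4621 nt, had 8.46, 8.84, 8.67 and 4.298 RPKM and 26.9, 18.01 and 32.1 RPKM (-1.64 and -1.26, limma adjusted p 0.00154 and 0.00516). Guf1, an elongation factor, was lower as well (-1.38 and -1.03, limma adjusted p 0.000321 and 0.00113), and Tsfm, the exchange factor of Tufm, was higher as deposited (0.64, limma adjusted p 0.016).

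Of 17 mitochondrial tRNA synthetases 2 were higher and 2 lower as deposited (11.8% each, near the 15.6% and 11.7% of all genes, median 0.011). Mars2 was among the higher ones (1.298, limma adjusted p 0.00586), and the lower ones were Iars2 and Lars2 (-1.95 and -0.88, limma adjusted p 0.00154 and 0.0259). Lars2 was no longer called with the length trend removed. Of 9 genes for the upkeep and transcription of mitochondrial DNA, 3 were higher as deposited (Polg2 by 1.12, Mgme1 by 0.67 and Ssbp1 by 0.48, median of the list 0.30) and 1, Mgme1, with the trend removed (median -0.031).

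The proteins of the cytosolic ribosome, which are short (median transcript 681.5 nt), were called higher in 74 of 78 genes as deposited, with a median of 0.90, and in 30 of 78 with the length trend removed, with a median of 0.32. The large mitochondrial subunit stood at 30 of 48 and 13 of 48 in the same fits, and the small one at 15 of 29 and 1 of 29. Of all genes 15.6% and 9.25% were called higher in these fits, and of all genes under 800 nt 43.5% and 12.0%. Genes of this kind have processed copies elsewhere in the genome that can take or give reads, so their values are uncertain. Among those with the smallest p were Rps2, Rpl32 and Rps14, with differences of 1.304, 0.99 and 1.07 on the log2(RPKM + 1) scale (limma adjusted p 2.44e-05, 4.58e-05 and 4.69e-05).

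Across members the level in the gated cells ran from 7.22 RPKM for Mrpl47 to 287 RPKM for Mrpl28, as the mean of 7 libraries, with medians of 56.5 RPKM in the large and 54.5 RPKM in the small subunit. In the unfractionated HSCs levels were expressed per length of transcript, as CPM per kb over 4 libraries of 21.3 M to 30.9 M reads. The medians were 77.8 CPM per kb over 47 large subunit genes and 79.9 over 29 small subunit genes. The gated and unfractionated tables come in different units, so only the order of genes is compared, and it was similar, with a Spearman's correlation of 0.84 over 76 genes that share transcript lengths and so part of their values.

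Mrpl42 was highest in the unfractionated cells, at 244 ± 59.7 CPM per kb (SD, n = 4), with Mrpl30 (238 ± 65.9) and Mrpl33 (235 ± 72.1) next, and these do not differ beyond their spread. Before division by length Mrpl42 had 163, 217, 147 and 123 CPM. Mrps25 was lowest, at 11.4 ± 1.51 CPM per kb, followed by Mrps36 at 16.3 ± 6.31, a difference within the spread of Mrps36. Mrpl47, the lowest member in the gated cells, had 56.9 ± 13.7 CPM per kb, and Mrps30, the highest of the small subunit names there, had 81.4 ± 4.803, close to the median.

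Summed over genes the large subunit took 3953, 5659, 5418 and 3903 CPM in unfractionated libraries 1 to 4, and the small subunit 1982, 2710.0, 2609 and 2059 CPM. Libraries 2 and 3 were higher than libraries 1 and 4 for both subunits. Of the paralogs, Mrps18a had 76.8, 81.6, 82.04 and 109 CPM, Mrps18b 60.6, 84.6, 94.8 and 57.1 CPM and Mrps18c 70.1, 101, 89.4 and 75.9 CPM. Mrpl57 stood in these tables under its older symbol Mrp63, with 107 ± 31.9 CPM (SD, n = 4), and in the gated cells it had 72.5, 79.6, 61.4 and 54.3 RPKM in FSC-A High and 56.03, 61.6 and 58.8 RPKM in FSC-A Low with no call (0.17, limma adjusted p 0.5).

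**Figure D5:**
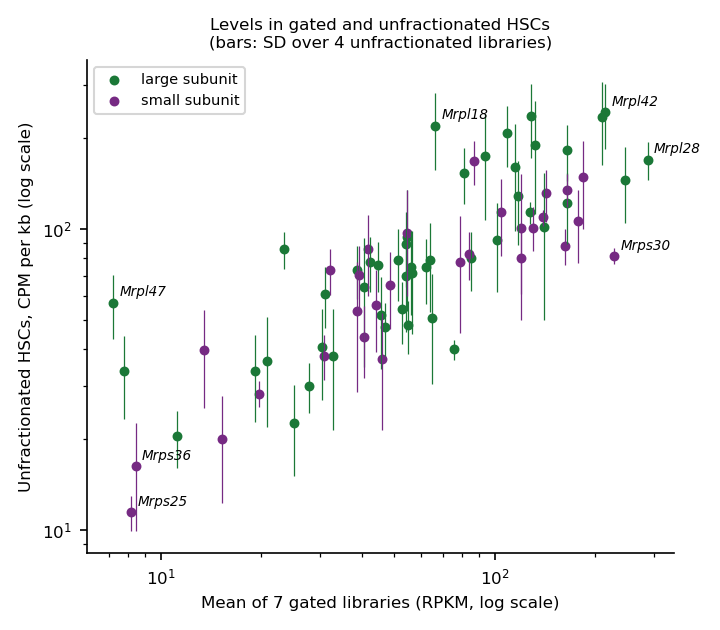
Level of 76 members in unfractionated HSCs (CPM per kb, mean and SD of 4 libraries, log axis) against their mean over the 7 gated libraries (RPKM, log axis), by subunit. Most genes follow one band from Mrps25 at lower left to Mrpl42 at upper right, and Mrpl47 and Mrpl1 stand above it while Mrps30 stands below.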

How the data were processed

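Bulk Smart-seq2 RNA libraries of sorted HSCs were used from 7 gated and 4 unfractionated samples, grouped by their titles. STAR, DESeq2 and mm10 are listed, without versions, per the submitters' processing notes, and the annotation and counting settings are not given in the sources used here. The gated files, as deposited by the authors, hold RPKM-like values per RefSeq transcript (33984 transcripts, of which 33591 were matched to a gene by accession or symbol). The unit was inferred from the values, and RPKM and FPKM cannot be told apart. From the digits of these values the integer depth of each library and the transcript length that the authors divided by were recovered for 23558 of 23561 transcripts above 0. The unfractionated files, as deposited by the authors, hold a signal per gene, which is reads divided by a size factor. Whole reads were recovered for 100% of those values within 0.01, and CPM (reads scaled to the total of the library) was computed from them.

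Differences were tested with limma 3.58.1 (lmFit, eBayes with trend, R 4.3.3) on log2(RPKM + 1), over 10619 genes that reached 1 RPKM in 3 or more gated libraries, with Benjamini-Hochberg adjustment over all of them and a threshold of 0.05. Only the 7 gated libraries entered the fit. The length trend was removed within each library with a natural spline of 5 degrees of freedom over log2 transcript length. Adjusted p-values of edgeR 4.0.16 come from its quasi-likelihood test on the reads that the RPKM values imply. Spearman's correlations over genes are descriptions with no p. Tables and figures were made in Python 3.11.15 with pandas 2.3.3 and matplotlib 3.10.9.

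On simulated data for this comparison (10619 genes, 200 of them changed) the fit recovered 75% of changes of size 1 and 100% of size 2 on the log2 scale, with 7 false calls. With a length trend added and not removed there were 2286 false calls, and with it removed 59% and 100% were recovered with 11 false calls. The changed genes were drawn from those of higher level. The noise was independent between genes, and the added trend was a straight line in FSC-A High alone. Recovery at low levels and the effect of noise shared between genes were therefore not examined.

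The members and lists were chosen with earlier results of these data known. Members named with all their values are, per subunit, the 5 with the largest difference among those called, the 2 with the highest and the 2 with the lowest level, those called lower, those called in 1 fit whose sign differs between the fits, and the Mrps18 paralogs. Of each other list at most the 4 called genes with the smallest p are named, and some items are not reported here. The reads behind the values are not independent molecules, since Smart-seq2 has no molecular identifiers. The unfractionated files were not tested against the gated ones, because their units differ. Alternatives were other pseudocounts, filters, scalings, length sources and splines, GC and expression level trends, the sum over transcripts, the replicate block, leaving out each library, and edgeR, and those on edgeR, TMM factors, GENCODE lengths and the finer spline were added after seeing the data.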

Additional observations from a re-analysis of the deposited data

Results flagged for a closer look

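Among 52 groups of 4 libraries, which are the FSC-A High and unfractionated values of the 24 named members and 4 subunit means in FSC-A High, 2 had 1 library far from the other libraries of its group, judged by the gap to the nearest value as a share of the range of the group against Dixon's 95% limit for 4 values, which chance passes in about 1 in 20 groups. Mrps18a had 109 CPM in unfractionated library 4 and 76.8 to 82.0 CPM in libraries 1 to 3. Mrps25 had 9.497 RPKM in FSC-A High library 2 and 8.01 to 8.23 RPKM in the other FSC-A High libraries. No cause was tested for either value.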

How the results depend on the processing

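As deposited, the count of members called higher stayed within 1.5 times of 30 (large) and 15 (small) with other pseudocounts, filters, TMM or median ratio factors and the sum over transcripts. Scaled to the total of gene values the small subunit had 8 calls and the medians were 0.45 (large) and 0.26 (small). With a length and GC trend removed there were 12 large (median 0.38) and 4 small calls (median 0.17), and with an expression level trend removed 18 (0.45) and 7 (0.27). edgeR on the implied reads called 9 small subunit genes. Without 1 library at a time the counts ran from 23 to 30 (medians 0.64 to 0.80) and from 10 to 16 (medians 0.50 to 0.62).

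With the length trend removed, the large and small medians were 0.31 and 0.16 (3 small calls) at a pseudocount of 5, 0.44 and 0.22 (4 small calls) with no filter, and 0.40 and 0.22 (5 small calls) with GENCODE lengths. The small subunit had 2 calls with a filter at 5 RPKM and with a spline of 10 degrees of freedom, and the large median was 0.21 with edgeR and a length offset. Without 1 library at a time there were 9 to 12 large calls (medians 0.28 to 0.30) and 1 to 2 small calls (medians 0.083 to 0.15). The cause was not tested. Signs turned with the length and GC trend removed for Mrpl52 (-0.069), Mrps15 (-0.12) and Mrps28 (-0.081), with an expression level trend removed for Mrpl54 (-0.36, called lower), and with GENCODE lengths for Mrps16 (0.65, length trend removed, called higher). Of 816 values of named members under the alternatives, 723 kept direction and call, 75 lost the call, 13 gained one and 5 turned.

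Same-numbered FSC-A High and Low libraries had correlations of their deviations of -0.031, 0.059 and 0.00013. Not every library correlated best with its own number. So few pairs cannot settle whether the replicate numbers pair the libraries. With a replicate block, which leaves out FSC-A High 4, 32 large and 13 small subunit genes were called higher as deposited, and 9 and 1 with the length trend removed, where the small median was 0.13. Of the named members' calls, those of Mrps15 as deposited and of Mrpl46, Mrpl54 and Mrps24 with the length trend removed were not made under the block (limma adjusted p 0.0535, 0.0589, 0.0664 and 0.0808). In the unfractionated cells the medians of the deposited signal were 2299.7 (large) and 1878 (small), and those in CPM 96.7 and 79.1. The members with the fewest reads, 192 in 1 gated library at the lowest, are the least precise.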
